A study of Mus musculus with 12 samples.

Results

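Keratocan (Kera), lumican (Lum), decorin (Dcn), osteoglycin (Ogn), fibromodulin (Fmod), prolargin (Prelp), biglycan (Bgn), asporin (Aspn), angiopoietin-like 7 (Angptl7) and prostaglandin D2 synthase (Ptgds) are followed here as genes of the keratocytes, the fibroblast-like cells of the corneal stroma. These genes are not all particular to keratocytes. They were chosen by name, with earlier results of these data known. All 10 were among the 19702 genes of the count table, and all 10 passed the filter on low counts that left 16124 genes. They were followed by RNA sequencing of mouse corneas in 12 libraries, 3 in each of 4 groups. UCPRP and UCS corneas were injured with benzalkonium chloride (BAK), a detergent preservative of eye drops, and received the cord blood-derived biologic after which each group is named, an abbreviation the labels do not expand. Vehicle corneas were injured with BAK and are labelled as untreated. Control corneas were neither injured nor treated. BAK was given as 5 µl of a 0.2% solution per eye each day for 14 days, and each biologic as 5 µl at 20%, 3 times a day for 10 days. The sources used here do not give the time of harvest, the strain and age of the mice, or whether the courses of BAK and biologic overlapped. Each library pooled 6 corneas from 3 mice, so p-values measure the spread between pools.

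The transparency of the stroma depends on thin collagen fibrils at even spacing, and the small leucine-rich proteoglycans that keratocytes secrete bind these fibrils and limit their width. In the cornea keratocan, lumican and osteoglycin carry keratan sulfate, while decorin and biglycan carry chondroitin or dermatan sulfate chains. After injury keratocytes can become activated fibroblasts, which are known to make less keratocan and more fibrillar collagen, biglycan and other scar matrix.

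Each library held between 18.55 M and 20.44 M estimated counts (median 19.02 M). The labelled tissue was checked against marker lists. Krt12, the keratin that defines corneal epithelium, was at 3.289 to 185.5 counts per 1 M counts (CPM) in the UCPRP libraries, at 8.678 to 40.32 CPM in UCS, at 7.177 to 23.94 CPM in Vehicle and at 15897 to 32863 CPM in Control. The summed level of 6 epithelial markers was 8959 to 11987 CPM in UCPRP, 9335 to 11121 CPM in UCS, 11014 to 12917 CPM in Vehicle and 31313 to 62228 CPM in Control. Since CPM is a share of each library, a stromal gene's CPM also depends on how much epithelial RNA the library holds. Retinal markers summed to 2401 to 14314 CPM and lens markers to 31.7 to 24688 CPM over the 12 libraries. Markers of iris, ciliary body and melanocytes summed to 3068 to 5662 CPM. The ranges of each of these lists overlapped between all groups. How much of any member's RNA came from these tissues was not tested. Of the 10 marker lists none had a measured member at 0 in every library of a group. In these bulk samples fewer cells of a type and less RNA per cell cannot be told apart.

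Per kilobase of exon, Ptgds, the enzyme that makes prostaglandin D2 and a retinoid-binding secreted protein, had the highest level of the 10 genes in every group. It reached 1754 ± 509 CPM per kb in UCPRP, 1787 ± 491 CPM per kb in UCS, 1485 ± 159 CPM per kb in Vehicle and 1552 ± 149 CPM per kb in Control (mean ± SD, n = 3 libraries per group, as for all means here). Decorin came next in each group, at 424 ± 72.0 CPM per kb in UCPRP, 388 ± 26.1 CPM per kb in UCS, 385 ± 124 CPM per kb in Vehicle and 359 ± 72.0 CPM per kb in Control. Lumican was the third in every group when lengths were the union of all exons. In Vehicle the per-length ranges of decorin (265.2 to 512.8 CPM per kb) and lumican (255.4 to 468.2 CPM per kb) overlapped, whereas in Control decorin (287.4 to 431.4 CPM per kb) lay above lumican (129.6 to 194.4 CPM per kb).

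Below these genes the order differed between groups. In Control keratocan was the fourth, at 127.0 ± 38.0 CPM per kb, and its range of 86.9 to 162.5 CPM per kb overlapped that of lumican above it and that of Angptl7 below it. In Vehicle keratocan was at 46.4 ± 16.8 CPM per kb, below biglycan, osteoglycin and fibromodulin in mean, and its range overlapped those of prolargin, Angptl7 and asporin. Asporin had the lowest mean in every group, from 6.21 ± 0.891 CPM per kb in Control to 34.7 ± 9.50 CPM per kb in Vehicle. The place of biglycan rests on the length used. Its Control level was 74.9 ± 12.3 CPM per kb over the union of its exons and 171.3 ± 28.2 CPM per kb over its longest transcript, which would put it beside lumican. In Vehicle these levels were 181.3 ± 33.7 and 414.9 ± 77.0 CPM per kb, where lumican had 347.0 ± 109.4 CPM per kb over either length.

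**Figure D1:**
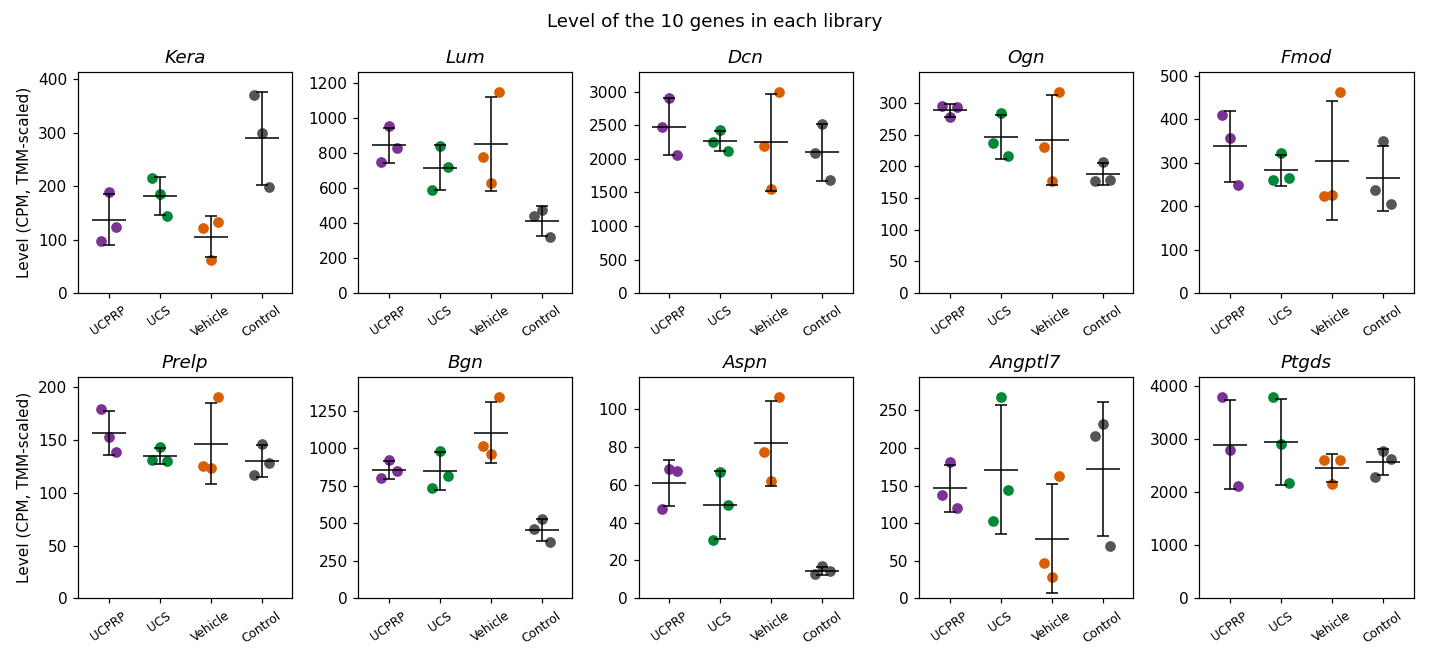
CPM of each of the 10 genes on linear axes from 0, with groups in the order UCPRP, UCS, Vehicle and Control; points are libraries, and lines with error bars are means ± SD (n = 3). Lum, Bgn and Aspn lie higher, and Kera lower, in all 3 Vehicle libraries than in the 3 Control libraries, while the other 6 genes overlap between these groups.

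Setting Vehicle against Control compares injured with uninjured whole corneas, from which the stroma was not separated. Lumican, biglycan and asporin rose, keratocan fell, and the other 6 genes did not pass the test. Of the 16124 genes tested, 16.5% were called (edgeR's quasi-likelihood test, adjusted p under 0.05, Benjamini-Hochberg over all genes tested), with 9.58% higher and 6.92% lower, against 4 of the 10 members. The groups did not overlap for the same 4 members, 40.0% of the 10, and for 30.6% of all genes. The median log2 fold change of the members was 0.19, beside −0.00129 for all genes tested.

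Among the class II members, keratocan, the most cornea-restricted proteoglycan of the family, had 122.5, 61.96 and 132.6 CPM in the Vehicle libraries, against 370.5, 300.0 and 198.1 CPM in the Control libraries. Every Vehicle library lay below every Control library. The log2 fold change was −1.45 (SE 0.336, edgeR adjusted p = 0.0121), which leaves 0.3651 of the Control level. Lumican, its neighbour on the same chromosome and also a corneal keratan sulfate proteoglycan of its class, went the other way. It had 777.1, 625.3 and 1146 CPM in Vehicle, against 441.9, 475.9 and 317.2 CPM in Control. The groups were again apart, and the log2 fold change was 1.05 (SE 0.241, edgeR adjusted p = 0.0119), a 2.064-fold rise.

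Biglycan, a chondroitin or dermatan sulfate proteoglycan known to accumulate in corneal scars, had 1014, 962.6 and 1341 CPM in Vehicle, against 463.4, 528.3 and 378.2 CPM in Control. All Vehicle libraries were higher than all Control libraries, by 1.28 on the log2 scale (SE 0.183, edgeR adjusted p = 0.00079). Asporin, which resembles decorin and biglycan, has a stretch of aspartates and is not itself a typical proteoglycan, showed the largest change of the 10. It had 77.24, 62.01 and 106.1 CPM in Vehicle, against 12.66, 16.84 and 14.39 CPM in Control. The lowest Vehicle library exceeded the highest Control library, and the level was 5.591-fold higher in Vehicle, which is 2.48 ± 0.289 on the log2 scale (± SE, edgeR adjusted p = 0.000248). Asporin lies within the longer gene Cenpp on the opposite strand, which osteoglycin overlaps too. Prolargin overlaps the antisense gene Gm15851, which was not in the count table. The use of strand in counting is not given, and Cenpp itself had at most 3.618 CPM in any library.

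The remaining proteoglycans did not pass the test. Decorin, of the same class as biglycan, had 2193, 1548 and 2994 CPM in Vehicle, against 2085, 2519 and 1678 CPM in Control (log2 difference 0.10, SE 0.245, edgeR adjusted p = 0.85). Its Vehicle values spanned the whole Control range. For osteoglycin, fibromodulin and prolargin, a heparin-binding member that anchors basement membranes to collagen, the log2 fold changes were 0.37 (SE 0.187), 0.21 (SE 0.302) and 0.17 (SE 0.17), with edgeR adjusted p-values of 0.23, 0.735 and 0.583, and the groups overlapped for each. Without Vehicle replicate 3 decorin was at −0.16, fibromodulin at −0.23 and prolargin at −0.06. Ptgds differed by −0.06 (SE 0.247, edgeR adjusted p = 0.91).

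Vehicle replicate 3 stood apart from its group in these genes. It held the highest Vehicle value for 10 of the 10 members and the highest value of all 12 libraries for 7 of the 8 proteoglycans, keratocan being the exception. Its skeletal muscle markers summed to 1060 CPM, against 171 and 486 CPM in the other Vehicle libraries and 7.82 to 309 CPM in Control. Its sclera and tendon markers summed to 168.5 CPM, against 98.7 to 151.0 CPM in the other libraries. Their part in its proteoglycan levels was not tested. Without it the 4 calls held, with log2 fold changes of −1.65 for keratocan, 0.77 for lumican, 1.11 for biglycan and 2.25 for asporin (edgeR adjusted p = 0.0184, 0.041, 0.00242 and 0.000668). With a term for the muscle markers in the model lumican was no longer called (edgeR adjusted p = 0.0649).

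**Figure D2:**
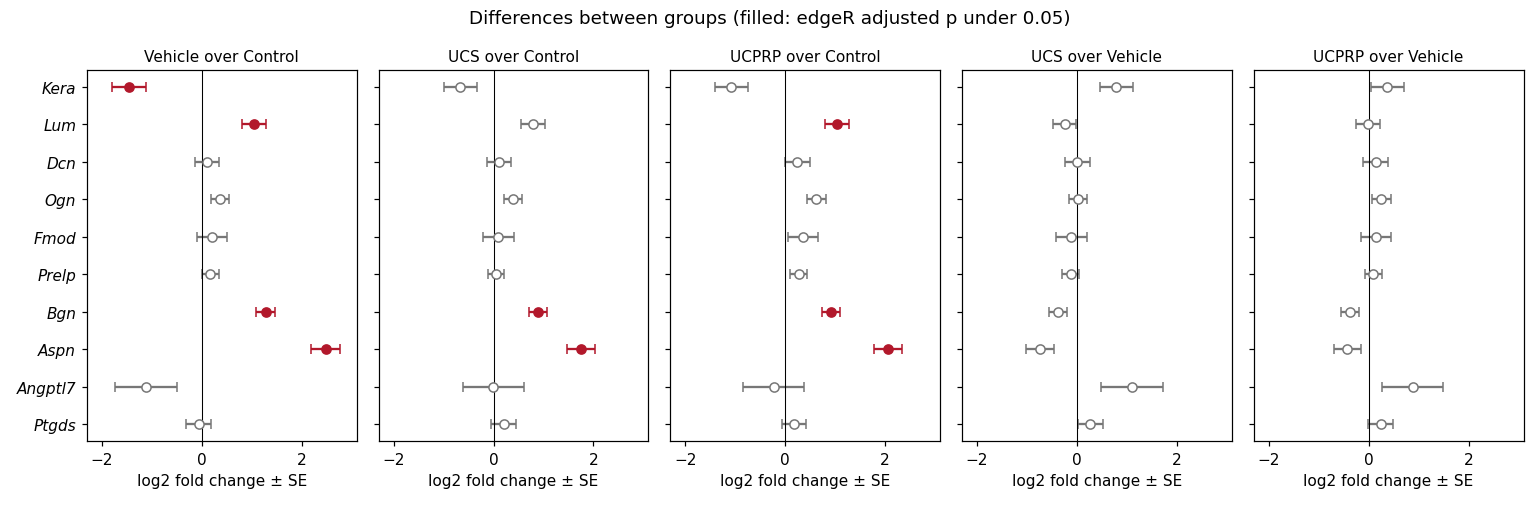
Log2 fold change of each gene, with SE, for Vehicle, UCS and UCPRP over Control and for UCS and UCPRP over Vehicle (n = 3 libraries per group); filled points passed edgeR's test at an adjusted p under 0.05. Filled points are Kera, Lum, Bgn and Aspn in Vehicle with Control, Bgn and Aspn in UCS with Control, and Lum, Bgn and Aspn in UCPRP with Control.

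The opposite changes of keratocan and lumican were described by their ratio within each library, which does not depend on library scaling. The log2 ratio of keratocan to lumican CPM was −2.948, −2.322 and −2.742 in UCPRP, −1.436, −2.183 and −2.315 in UCS, −2.665, −3.335 and −3.111 in Vehicle, and −0.2545, −0.6658 and −0.6791 in Control. Every injured library lay below every Control library. The mean of Vehicle differed from that of Control by −2.50 on the log2 scale, that of UCS by −1.45 and that of UCPRP by −2.14. Each of these had an exact two-sided permutation p of 0.1, the smallest that 3 against 3 libraries allow, and a Benjamini-Hochberg adjusted p of 0.12 over the 6 comparisons. In Vehicle and in UCPRP keratocan lay wholly below Control and lumican wholly above it. The p of the ratio against Control was thereby fixed for these groups and is no further test. UCS lay above Vehicle by 1.06 without overlap (exact permutation p = 0.1, adjusted 0.12). UCPRP overlapped Vehicle and differed from it by 0.37 (exact permutation p = 0.3, adjusted 0.3). UCPRP lay below UCS by −0.69 on average (exact permutation p = 0.1, adjusted 0.12), although the highest UCPRP library, at −2.322, was next to the lowest UCS library, at −2.315.

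The 8 proteoglycans were also described as a pool. Their summed level was 5158 ± 610 CPM in UCPRP, 4719 ± 458 CPM in UCS, 5080 ± 1477 CPM in Vehicle and 3847 ± 724 CPM in Control. The ranges of Vehicle (3787 to 6690 CPM) and Control (3097 to 4542 CPM) overlapped. When the CPM of each gene was divided by exon length, keratocan made up 4.73% ± 1.21 of the pool in UCPRP, 7.07% ± 1.64 in UCS, 3.77% ± 0.87 in Vehicle and 13.7% ± 2.92 in Control. The Control libraries (17.03%, 12.21% and 11.76%) lay above all others. The UCS libraries (8.943%, 6.36% and 5.902%) lay above the Vehicle libraries (4.72%, 3.008% and 3.59%), and the UCPRP libraries (3.513%, 5.926% and 4.762%) overlapped both.

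Lumican's share was 28.4% ± 0.509 in Vehicle and 18.2% ± 0.697 in Control, and biglycan's was 15.2% ± 2.02 in Vehicle and 8.13% ± 0.23 in Control. The order of these genes rests on the length used. Over the longest transcript lumican's share was 22.2% ± 0.677 in Vehicle and 15.1% ± 0.644 in Control. Biglycan's was then 27.2% ± 3.12 in Vehicle and 15.4% ± 0.391 in Control. Decorin, the largest part in each group, made up 31.3% ± 1.84 in Vehicle and 38.8% ± 1.3 in Control. Asporin's mean share was 2.86% in Vehicle and 0.685% in Control. Osteoglycin, fibromodulin and prolargin had mean shares of 7.72%, 7.39% and 3.36% in Vehicle, near their 8.04%, 8.57% and 3.97% in Control. A share within a pool shows unequal change between the genes and not which of them changed.

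**Figure D3:**
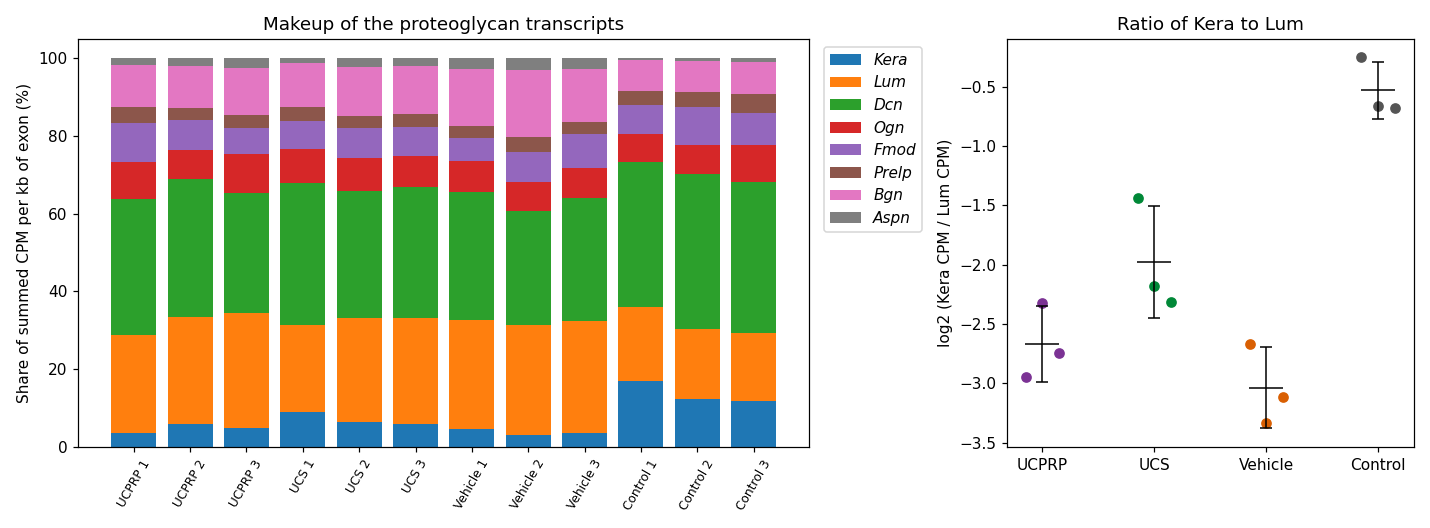
Share of each of the 8 proteoglycans in their summed CPM per kb of exon, as stacked bars for every library (left), and the log2 ratio of Kera to Lum CPM per library with group mean ± SD (right), in the order UCPRP, UCS, Vehicle and Control. The Kera share is 11.76% to 17.03% in the Control libraries and at most 8.943% in the others, and the ratio is highest in Control.

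The proteoglycan genes lie in clusters on the mouse genome (GRCm38.p6, RefSeq). Decorin (97479500 to 97518163), lumican (97565501 to 97572703) and keratocan (97606962 to 97613688) follow each other on the plus strand of chromosome 10, with the related gene Epyc next to keratocan. Asporin (49544443 to 49567565) and osteoglycin (49608015 to 49624501) lie on the plus strand of chromosome 13 together with Ecm2 and Omd. Prolargin (133910304 to 133930102, minus strand) and fibromodulin (134037254 to 134048280, plus strand) lie on chromosome 1, and biglycan lies alone on chromosome X (73483601 to 73495936). Within the first cluster keratocan fell, lumican rose and decorin did not pass the test in Vehicle against Control, and within the second cluster asporin rose and osteoglycin did not pass.

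RefSeq promoter entries were found for 8 of the 10 genes. The entries of the 3 called genes that have one are shown because keratocan fell while asporin and biglycan rose. Each runs from 250 bases before to 50 bases after the start that the promoter table uses in GRCm38.p6, read 5′ to 3′ on the strand of the gene. For asporin and biglycan that start is the first base of the gene as given above. For keratocan it lies downstream of that base, so nearly all of its window is inside the annotated gene. Capitals mark matches, on either strand, to 6 motifs that were searched, which are the TATA box (TATAAA), the AP-1 element (TGANTCA), the GC box (GGGCGG), the CCAAT box, the E-box (CACGTG) and the core of the D-box (TTANNTAA).
Kera, chr10:97606955-97607254, plus strand: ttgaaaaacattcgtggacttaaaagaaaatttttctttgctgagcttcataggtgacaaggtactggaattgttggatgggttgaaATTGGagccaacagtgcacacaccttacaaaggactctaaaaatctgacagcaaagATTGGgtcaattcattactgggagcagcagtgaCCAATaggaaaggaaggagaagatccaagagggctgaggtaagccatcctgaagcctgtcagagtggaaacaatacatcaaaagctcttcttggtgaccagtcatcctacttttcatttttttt
Aspn, chr13:49544193-49544492, plus strand: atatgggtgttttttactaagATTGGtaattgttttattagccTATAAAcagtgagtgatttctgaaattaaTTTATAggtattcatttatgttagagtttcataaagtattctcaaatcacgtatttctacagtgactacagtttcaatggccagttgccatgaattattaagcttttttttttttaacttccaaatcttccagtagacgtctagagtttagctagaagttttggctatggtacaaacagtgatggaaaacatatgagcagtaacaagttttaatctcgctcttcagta
Bgn, chrX:73483351-73483650, plus strand: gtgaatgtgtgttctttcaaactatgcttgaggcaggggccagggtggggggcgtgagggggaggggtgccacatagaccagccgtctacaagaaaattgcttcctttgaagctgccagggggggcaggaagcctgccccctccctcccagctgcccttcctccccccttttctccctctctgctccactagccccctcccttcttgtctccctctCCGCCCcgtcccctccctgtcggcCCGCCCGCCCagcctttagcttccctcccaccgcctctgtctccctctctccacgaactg
The keratocan window held 3 CCAAT matches, the asporin window 2 TATA box matches and 1 CCAAT match, and the biglycan window 3 GC box matches, of which 2 overlap. No motif was shared by all 3. Among 32851 promoter windows of the same length 37.4% held the CCAAT box, 13.6% the TATA box, 35.7% the GC box, 7.81% the AP-1 element, 7.15% the E-box and 6% the core of the D-box. Of the 8 members with an entry, 4 held the CCAAT box, 2 the TATA box and 1 the GC box. The Ptgds window held the AP-1 element and the D-box core, none held the E-box, and that of Angptl7 held none of the 6. A match is a description of the letters and not of a bound site.

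The comparisons of UCS and UCPRP with Vehicle ask whether these genes differed in injured corneas given the biologics. They share the 3 Vehicle libraries. No member was called in either one, and neither was any other gene, 0% of the 16124 tested (edgeR). At an unadjusted p under 0.05 there were 2 members and 782 genes (4.85%) for UCS, and 0 members and 1572 genes (9.75%) for UCPRP. DESeq2 called 14 genes for UCS and 145 for UCPRP, limma-voom called 0 for both, and neither called a member.

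Keratocan was the member that UCS corneas held apart from Vehicle on the high side. It had 216.2, 185.2 and 144.8 CPM in UCS, against 122.5, 61.96 and 132.6 CPM in Vehicle. All UCS libraries exceeded all Vehicle libraries, with a log2 fold change of 0.78 (SE 0.331, unadjusted p = 0.037, edgeR adjusted p = 1). It was the only member whose groups did not overlap, 10.0% of the 10, a share near the 9.46% of all genes. With UCS higher, 5.02% of all genes had no overlap. In UCPRP keratocan had 97.07, 190.0 and 124.0 CPM, which overlapped Vehicle (log2 difference 0.37, SE 0.33, edgeR adjusted p = 0.75). This value was 0.065 without UCPRP replicate 2, 0.092 without Vehicle replicate 2 and 0.57 without UCPRP replicate 1 or Vehicle replicate 3. The UCS value was 0.50 without Vehicle replicate 2. The difference of UCPRP from UCS in keratocan was −0.41 (SE 0.33), and the groups overlapped.

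Asporin had 30.86, 66.71 and 49.46 CPM in UCS, against 77.24, 62.01 and 106.1 CPM in Vehicle, and the groups overlapped by 1 library each (log2 fold change −0.74, SE 0.272, unadjusted p = 0.0201, edgeR adjusted p = 0.93). In UCPRP it had 47.04, 68.47 and 67.42 CPM (log2 fold change against Vehicle −0.42, SE 0.271, edgeR adjusted p = 0.651). Biglycan was the only member that UCPRP held apart from Vehicle, on the low side, 10.0% of the 10 members. Over all genes 13.8% had no overlap and 7.13% had none with UCPRP lower. Biglycan had 800.2, 921.5 and 849.8 CPM in UCPRP, against 1014, 962.6 and 1341 CPM in Vehicle, a difference of −0.37 (SE 0.18, edgeR adjusted p = 0.538). In UCS biglycan had 736.4, 984.9 and 818.3 CPM, and the highest of these lay within the Vehicle range. Without Vehicle replicate 3 the differences of UCPRP from Vehicle were −0.20 for biglycan and −0.19 for asporin, and that of UCS was −0.22 for biglycan.

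Lumican was nearly level with Vehicle in UCPRP (log2 fold change −0.01) and at −0.25 in UCS, with overlap in both. Decorin, osteoglycin, fibromodulin and prolargin ranged in log2 fold change from −0.12 to 0.02 in UCS and from 0.10 to 0.26 in UCPRP, each with overlapping groups. Without Vehicle replicate 3 lumican turned to 0.03, fibromodulin to 0.33 and prolargin to 0.11 in UCS, and lumican to 0.27 in UCPRP. Ptgds was at 0.27 (SE 0.247) in UCS and 0.24 in UCPRP. A p that misses the threshold does not show that the treated and untreated corneas were alike.

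**Figure D4:**
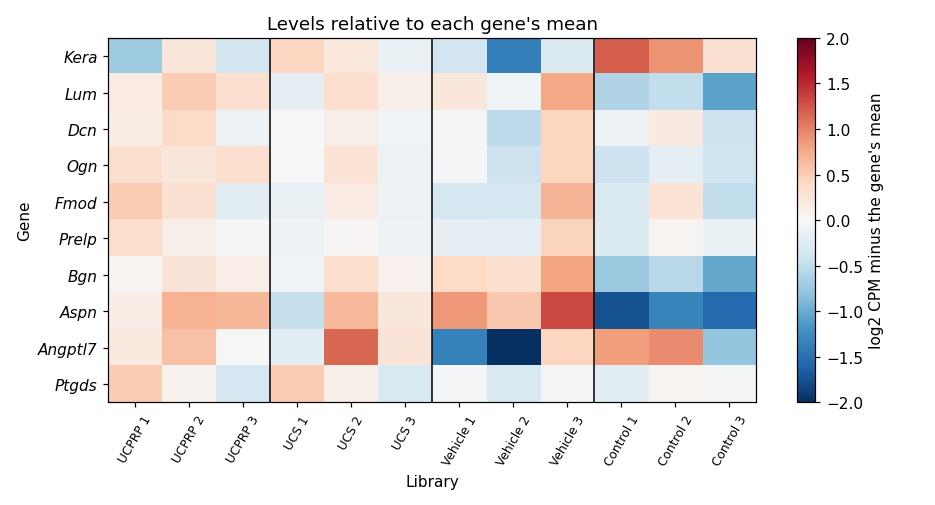
Log2 CPM of each of the 10 genes in every library minus that gene's mean over the 12 libraries, with groups in the order UCPRP, UCS, Vehicle and Control. Kera is above its mean in the 3 Control libraries and Lum, Bgn and Aspn are below theirs, and Vehicle replicate 3 is high for 7 of the 8 proteoglycans.

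Against Control, both treated groups had higher asporin and biglycan, and these comparisons share the 3 Control libraries. In UCS 2 members were called higher and none lower, where 10.9% of all genes were called, 6.4% higher and 4.47% lower. In UCPRP 3 were called higher and none lower, where 10.4% were called, 5.3% higher and 5.07% lower. Asporin was higher by 1.74 on the log2 scale in UCS (SE 0.284, edgeR adjusted p = 0.00247) and by 2.06 in UCPRP (SE 0.286, edgeR adjusted p = 0.00113). Biglycan was higher by 0.89 in UCS (SE 0.182, edgeR adjusted p = 0.00874) and by 0.91 in UCPRP (SE 0.182, edgeR adjusted p = 0.00883).

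Lumican had 749.3, 949.6 and 829.3 CPM in UCPRP and 585.0, 841.0 and 720.5 CPM in UCS, all above the 317.2 to 475.9 CPM of Control. Its rise of 1.03 on the log2 scale was called in UCPRP (SE 0.241, edgeR adjusted p = 0.0193), and its difference from Control in UCS was just outside the threshold (0.80, SE 0.24, edgeR adjusted p = 0.0575). The UCPRP call was lost without Control replicate 3, UCPRP replicate 2 or UCPRP replicate 3 (adjusted p = 0.0676, 0.0728 and 0.0528). For UCS the difference was called by DESeq2 (adjusted p = 0.00791) and by limma-voom (0.0499), so the threshold does not part the treatments.

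Keratocan was at −1.08 against Control in UCPRP (SE 0.333, edgeR adjusted p = 0.0648) with no overlap, and DESeq2 called it (adjusted p = 0.0106). In UCS it was at −0.67 (SE 0.33, edgeR adjusted p = 0.257), with the highest UCS library, at 216.2 CPM, above the lowest Control library, at 198.1 CPM. Osteoglycin, a keratan sulfate proteoglycan once named mimecan, had 295.2, 277.1 and 293.4 CPM in UCPRP and 236.2, 284.2 and 216.6 CPM in UCS, against 176.5, 207.2 and 178.5 CPM in Control. Neither treated group overlapped Control (log2 fold change 0.62 with edgeR adjusted p = 0.059 in UCPRP, and 0.39 with 0.241 in UCS). DESeq2 called osteoglycin for UCPRP (adjusted p = 0.0162). The groups did not overlap for 4 of 10 members in UCS, where this held for 28.9% of all genes, and for 5 of 10 in UCPRP, where it held for 28.2%.

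UCPRP and UCS were not told apart by any member. None was called by edgeR, where 0% of genes were called, and none had an unadjusted p under 0.05, where 393 genes (2.44%) did. DESeq2 and limma-voom called 0 genes. No member's groups lacked overlap, against 10.6% of all genes, and the lowest adjusted p of a member was 0.985.

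Angptl7, a secreted angiopoietin-like protein of the cornea and trabecular meshwork, had the largest SEs of the 10 genes. It had 137.9, 181.4 and 120.1 CPM in UCPRP, 102.5, 267.5 and 143.6 CPM in UCS, 47.2, 28.87 and 162.4 CPM in Vehicle, and 215.6, 231.4 and 69.77 CPM in Control. All groups overlapped, and Vehicle differed from Control by −1.12 (SE 0.619, edgeR adjusted p = 0.274). Without Vehicle replicate 3 the difference was −2.18 and passed the test (edgeR adjusted p = 0.0263). Angptl7 overlaps Mtor on the opposite strand, and Mtor had 62.83 to 125.6 CPM over the 12 libraries.

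The libraries lowest in Angptl7 were those with another balance of circadian clock genes. Dbp, a clock output gene, was at 14.66 to 25.89 CPM and Arntl, the clock's activator, at 39.11 to 66.36 CPM in UCS replicate 1, Vehicle replicates 1 and 2 and Control replicate 3. The other 8 libraries had 139.4 to 280.3 CPM of Dbp and 9.136 to 24.41 CPM of Arntl. Angptl7 ran from 28.87 to 102.5 CPM in the 4 libraries with low Dbp (median 58.48 CPM) and from 120.1 to 267.5 CPM in the other 8 (median 171.9 CPM), without overlap, and the other 9 genes overlapped between these libraries. This division was chosen after the values were seen. Within groups, Angptl7 changed by 0.34 on the log2 scale per log2 unit of the ratio of Dbp to Arntl (SE 0.0572, unadjusted p = 0.000164, edgeR adjusted p = 0.106). It ranked 25 of 16124 genes by p, but no member was called, where 0.0992% of genes were.

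With the clock ratio as a term, the difference of Vehicle from Control in Angptl7 was −0.69 (edgeR adjusted p = 0.207), and the calls for keratocan (−1.36), lumican (1.22), biglycan (1.40) and asporin (2.60) held (edgeR adjusted p = 0.0329, 0.00143, 0.000324 and 0.000333). Within the 8 libraries of high Dbp, which leave 1 Vehicle library, keratocan was not called (edgeR adjusted p = 0.153). Keratocan's difference of UCS from Vehicle was 0.31 in those 8 libraries and 1.23 in the other 4, which hold 1 UCS library.

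**Figure D5:**
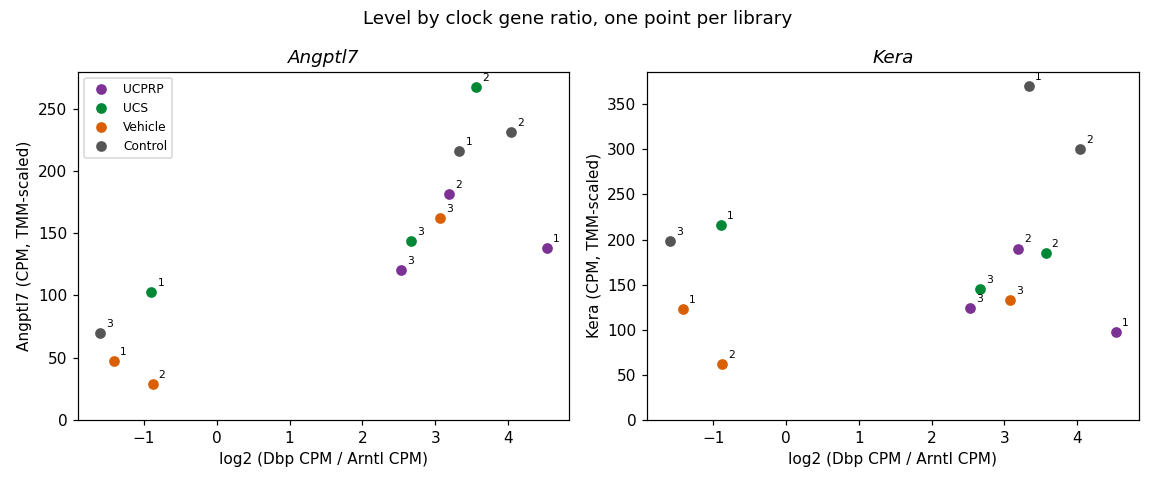
CPM of Angptl7 (and of Kera for comparison) in every library against the log2 ratio of Dbp to Arntl, with points coloured by group. For Angptl7 the 4 libraries with a low ratio lie at 28.87 to 102.5 CPM and the other 8 at 120.1 to 267.5 CPM, whereas Kera overlaps between them.

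The members were also compared by shape across the 12 libraries, as the root mean square difference of log2 CPM after centring each gene on its own mean. The closest pair was lumican and biglycan (0.171), then decorin and prolargin (0.183) and osteoglycin and prolargin (0.186). The farthest were keratocan and asporin (1.51), and asporin and Angptl7 (1.45). Among 12613 genes of at least 5 CPM, those most like lumican were Cthrc1 (0.131), Col1a2 (0.132), Itgbl1 (0.137), Col1a1 (0.148) and Gpx7 (0.149), where lumican's own SD was 0.496. Col1a1 and Col1a2 encode the chains of type I collagen, and Cthrc1 is a secreted protein of activated fibroblasts. Col1a2 averaged 1474 ± 575 CPM in Vehicle and 726.9 ± 227 CPM in Control.

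Keratocan had no such close companion. The genes most like it were Exph5 (0.354), S1pr5 (0.356), Mamdc2 (0.364), Rapgefl1 (0.368) and A2m (0.37), where its own SD was 0.671. Exph5, an effector of vesicle transport best known from skin epithelium, averaged 33.6 ± 8.12 CPM in Vehicle and 73.5 ± 2.28 CPM in Control. No collagen was among these 5 genes. The measure describes 12 libraries that share 4 groups and carries no test.

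Genes that make, bind or cut the proteoglycans were counted by list, in Vehicle against Control unless named otherwise. Over all genes 9.58% were called higher and 6.92% lower in that comparison. Of 12 fibrillar and fibril-associated collagens 9 rose and none fell, with a median log2 fold change of 1.09. Col3a1, the collagen of early repair tissue, was higher by 2.26 (edgeR adjusted p = 0.000986), and Col14a1, a fibril-associated collagen that decorin binds, by 2.14 (edgeR adjusted p = 0.000214). Of 12 activated fibroblast genes 4 rose, which were Tnc by 4.15, Lox by 2.57, Postn by 1.91 and Fn1 by 1.14. These encode tenascin-C, a collagen cross-linking enzyme, periostin and fibronectin. Leukocyte markers moved with these lists, summing to 548 to 758 CPM in Vehicle and 129 to 190 CPM in Control. Vessel and pericyte markers did so too, with 3 of 5 called higher and sums of 190.5 to 213.2 CPM in Vehicle and 101.9 to 137.3 CPM in Control. The part of either in the lists was not tested.

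Of 10 enzymes that cut proteoglycans or trim their precursors, 5 rose and none fell. Mmp13, a collagenase that also cuts fibromodulin and biglycan, was higher by 5.53 (edgeR adjusted p = 0.000244), Mmp3, stromelysin, by 2.57, Mmp2, a gelatinase, by 1.41 and Bmp1, which removes the biglycan propeptide, by 0.80 (edgeR adjusted p = 0.000326, 0.000239 and 0.0134). In UCS against Control 3 of the 10 rose and in UCPRP against Control 4 did. For the collagens these counts were 3 of 12 in UCS and 5 of 12 in UCPRP, and for the fibroblast genes 3 of 12 and 4 of 12. Over all genes, too, fewer were called higher against Control in UCS (6.4%) and UCPRP (5.3%) than in Vehicle (9.58%). Against Vehicle 0 genes of these lists were called (edgeR), with median log2 fold changes for the collagens of −0.38 in UCS and −0.14 in UCPRP.

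Of 10 enzymes of keratan sulfate tested, 2 rose and none fell, beside 9.58% higher and 6.92% lower over all genes. Their median was 0.01, with 5 of the 10 above 0. The pair that rose, Fut8 (0.51, edgeR adjusted p = 0.003) and B4galt1 (0.47, edgeR adjusted p = 0.00611), act on many other glycans. Chst5, the corneal keratan sulfate sulfotransferase of the mouse, was at −0.54 (edgeR adjusted p = 0.235) and B3gnt7, which extends the chain, at −0.14 (edgeR adjusted p = 0.777), both named after their values were seen. Of 21 chondroitin and dermatan sulfate enzymes 5 rose and 3 fell, with a median of 0.28. Dse, the epimerase that turns chondroitin into dermatan sulfate, was higher by 0.61 (edgeR adjusted p = 0.0272), and Chpf, a chain polymerizing factor, by 0.53 (edgeR adjusted p = 0.0168). Csgalnact1, which starts chondroitin chains, fell by 1.27 on the log2 scale (edgeR adjusted p = 0.000336).

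Among 9 further small leucine-rich proteoglycans none was called higher and Optc alone was called lower. Their median log2 fold change was 0.47, with 7 of the 9 above 0, beside −0.00129 for all genes tested. Optc encodes opticin, a proteoglycan of the vitreous and ciliary body whose gene neighbours prolargin. It had 80.65 ± 25 CPM in Vehicle and 216.6 ± 45.6 CPM in Control, a difference of −1.43 (edgeR adjusted p = 0.00843). Iris and ciliary body markers summed to 3068 to 4815 CPM in Vehicle and 4161 to 5662 CPM in Control. Of 10 other genes of keratocytes 2 rose and 3 fell. Those that fell were Aldh3a1 by 3.49, Tkt by 2.64 and Aldh1a1 by 1.49 on the log2 scale. Aldh3a1 and Tkt are crystallin-like enzymes that the corneal epithelium also holds in abundance. Of the 6 epithelial markers tested, 5 were called lower, among them Krt12, and 1 was called higher. The part of the epithelium in these falls was not tested. Nt5e, the ecto-nucleotidase CD73, was higher by 1.27 (edgeR adjusted p = 0.00145).

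For the genes around Ptgds, 5 of 13 prostaglandin D2 and E2 genes rose and 1 fell, while Ptgds itself did not pass the test. Ptgs2, the inducible cyclooxygenase upstream of it, was higher by 2.22 (edgeR adjusted p = 0.00513), and Hpgd, which inactivates prostaglandins, by 1.02 (edgeR adjusted p = 0.00026). The gene that fell was Hpgds, the other prostaglandin D2 synthase, known from mast cells and other leukocytes, by 0.99 on the log2 scale (edgeR adjusted p = 0.00185). Of 4 other angiopoietin-like genes tested edgeR called 0, and 1, Angptl4, had an unadjusted p under 0.05 (0.68, unadjusted p = 0.0216, edgeR adjusted p = 0.0997), named after its value was seen.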

How the data were processed

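Each of the 12 libraries was made from pooled whole corneas with the Qiagen RNeasy and TruSeq Stranded Total RNA kits, per the labels' protocols. HISAT and the build GRCm38 come from the submitters' processing notes; versions, counter, annotation and whether strand was used are not given in the sources. The authors deposited estimated counts per gene, per the file headers, of which 64.9% were whole, and 3 members (Bgn, Aspn and Angptl7) had fractional ones. They were rounded, filtered with filterByExpr (minimum count 10), scaled by TMM (factors 0.825 to 1.07) and fitted by edgeR 4.0.16 (R 4.3.3) with its quasi-likelihood F test, with 1 term per group over all 12 libraries and Benjamini-Hochberg adjustment over 16124 genes. The common biological coefficient of variation was 0.227. Counts of replicates within a group differed by at least 17.9 times counting error (chi-square per degree of freedom), so no library repeated another of its group. Pairs across groups were not compared in this way. Calls need an adjusted p under 0.05. Each SE follows from the F statistic, as |log2 fold change| over its square root. CPM values are TMM-scaled, and levels per kb use the exon union of the mouse gene annotation of GRCm38. A count of 0 allows up to 3 counts, for counting error only. The fitting code was tested on simulated data. Ratios were tested by exact permutation (scipy 1.17.1).

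The members and lists were chosen with earlier results of these data known. Besides the members, up to 4 called genes with the largest changes were named per list and comparison, otherwise its most abundant gene, and the 5 genes most like Kera and Lum. Alternatives were DESeq2 1.42.0 and its size factors, limma-voom (limma 3.58.1), library totals, no filter, only the 2 groups compared, a replicate block, covariates for the clock, muscle and retina, and leaving out each library. Promoters are from RefSeq (GRCm38.p6).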

Additional observations from a re-analysis of the deposited data

How the results depend on the processing

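The 4 calls of Vehicle with Control held under RLE scaling, library totals, no filter, DESeq2, limma-voom, 2 groups only, the replicate block and the clock and retina covariates, with ranges over all alternatives beside leaving out libraries of −1.61 to −1.11 for keratocan, 0.98 to 1.32 for lumican, 1.25 to 1.43 for biglycan and 2.27 to 2.84 for asporin. The muscle covariate ended the lumican call. Leaving out each library kept all 4 calls. Library totals moved the median of all genes to 0.11 in Vehicle with Control and to 0.121 in UCPRP with Control, so members' values there include that shift. Apart from fits within the libraries of high or of low clock ratio, given below, 62 values of members turned sign, none of them called, and the largest had started at 0.248. Counting error is small at these levels, and the 3 pools per group set the limit.

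Turned values in Vehicle with Control were Ptgds 0.052 (library totals), Dcn −0.012 and Fmod −0.015 (muscle covariate). In UCS with Vehicle they were Dcn −0.0089 (library totals), Dcn −0.083 and Ogn −0.046 (clock covariate) and Fmod 0.038 (muscle covariate). In UCPRP with Vehicle they were Lum 0.025 (limma-voom) and 0.030 (muscle covariate), Dcn −0.10, Fmod −0.23 and Prelp −0.072 (clock covariate). Angptl7 in UCS with Control was 0.11 (library totals), 0.052 (limma-voom) and 0.14 (clock covariate). In UCPRP with UCS, Bgn was −0.0040 (2 groups only) and −0.10 and Dcn −0.018 (clock covariate), and Ptgds 0.11 (retina covariate). DESeq2 called 14 genes in UCS and 145 in UCPRP with Vehicle, and 5 members in UCPRP with Control. The cause was not tested.

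The 8 libraries of high and the 4 of low clock ratio, chosen after seeing the data, gave 574 and 154 called genes in Vehicle with Control, against 2661, and 1 member in the 4. In UCS with Control the 8 gave 1027 genes and 1 member and the 4 gave 0 and 0, and in UCPRP with Control the 8 gave 1009 genes. Fewer libraries enter these fits. In the 8, values turned to Ptgds 0.041 (Vehicle with Control), Dcn −0.41, Ogn −0.35 and Ptgds −0.048 (UCS with Vehicle), Dcn −0.27, Ogn −0.14, Fmod −0.45, Prelp −0.28 and Angptl7 −0.15 (UCPRP with Vehicle), Dcn −0.031, Fmod −0.0069 and Ptgds −0.0074 (UCS with Control) and Bgn −0.066 and Ptgds 0.20 (UCPRP with UCS). In the 4 they turned to Prelp −0.045 (Vehicle with Control), Fmod 0.21 and Prelp 0.072 (UCS with Vehicle) and Kera 0.12 and Angptl7 0.55 (UCS with Control).

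Leaving out 1 library gave 998 to 1709 called genes in UCPRP with Control (lowest without UCPRP replicate 3, then 1009 without UCPRP replicate 2), 1089 to 1787 in UCS with Control (lowest without UCS replicate 3), 0 to 195 in UCPRP with Vehicle and 0 to 37 in UCS with Vehicle, both highest without Vehicle replicate 3. Members called in UCPRP with Control were 2 to 5. The log2 difference of the summed level was −0.14 to 0.27 in UCPRP and −0.26 to 0.15 in UCS with Vehicle. Ranges of members that turned were, in Vehicle with Control, Dcn −0.16 to 0.32, Fmod −0.23 to 0.45, Prelp −0.064 to 0.29 and Ptgds −0.14 to 0.031. In UCS with Vehicle they were Dcn −0.20 to 0.28, Fmod −0.29 to 0.33, Lum −0.43 to 0.030, Ogn −0.16 to 0.27 and Prelp −0.24 to 0.11. In UCPRP with Vehicle they were Dcn −0.077 to 0.41, Fmod −0.034 to 0.59, Lum −0.20 to 0.27 and Prelp −0.022 to 0.33. In UCS with Control they were Angptl7 −0.48 to 0.26, Dcn −0.025 to 0.27, Fmod −0.056 to 0.35, Prelp −0.026 to 0.14 and Ptgds −0.016 to 0.38. In UCPRP with Control they were Angptl7 −0.61 to 2.8e-05 and Ptgds −0.065 to 0.36, and in UCPRP with UCS Angptl7 −0.49 to 0.25, Bgn −0.073 to 0.14 and Ptgds −0.27 to 0.19.

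Same-numbered libraries of different groups had a median correlation of deviations of −0.0974 over 18 pairs, 7 of them over 0.1. Libraries of different numbers had 0.0672 over 36 pairs, 14 of them over 0.1. These values show no pairing by number but cannot exclude one. The fit with the replicate block called 2300 genes in Vehicle with Control, 1493 in UCS with Control, 1402 in UCPRP with Control and 0 in the other comparisons, with 4, 2 and 3 members.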

Other observations

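Outside the naming rule, and chosen after the values were seen, the genes whose centred log2 CPM lay nearest to that of Angptl7 over the 12 libraries were Tef (root mean square difference 0.422), Nr1d1 (0.445), Per3 (0.465), Nr1d2 (0.467) and Tsc22d3 (0.471), where the SD of Angptl7 itself was 0.921. The first 4 of these are genes of the circadian clock or its output, and Tsc22d3 is a glucocorticoid target. For biglycan the nearest was Mmp2 (0.116). For asporin the nearest were Thbs2 (0.253), Clec4a2 (0.271), Postn (0.315), P4ha3 (0.327) and Ms4a6b (0.342). Of these, Thbs2 and Postn encode thrombospondin-2 and periostin, matrix proteins of wounded stroma. Leukocyte markers also rose in Vehicle against Control, and their part in this likeness was not tested. These likenesses describe 12 libraries and carry no test.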
